A study of Mus musculus with 6 samples.

Results

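The genes described here are the 4 mouse Fc gamma receptors Fcgr1, Fcgr2b, Fcgr3 and Fcgr4, the receptors Trem1 and Trem2, the signalling adaptors Fcer1g and Tyrobp, and the kinase Syk. They were listed by symbol and role, and each matched 1 Ensembl identifier, so that they are 9 of the 46983 genes in the table. They were measured by RNA sequencing of macrophages grown in a dish from mouse bone marrow (BMDM), in 3 wild-type (WT) and 3 AEG-1 KO libraries. Per the labels, all mice were C57BL/6 and the marrow was femoral. Both genotypes were cultured alike for 7 days in RPMI with 20% conditioned medium of L929 cells, a source of the macrophage growth factor CSF1, and 10% FBS that had been heat-inactivated, and neither was treated. The gene Mtdh encodes AEG-1, the protein removed in the knockout. The labels used here do not say how the knockout was made or in which cells, nor whether the 3 libraries of a genotype came from separate mice or cultures, so the p-values reflect library-to-library spread that could be technical.

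Fc gamma receptors bind the constant part of IgG on coated particles and immune complexes. The activating receptors Fcgr1, Fcgr3 and Fcgr4 have no signalling motif of their own and pair with the FcR gamma chain encoded by Fcer1g, whereas Fcgr2b carries an inhibitory motif (ITIM) in its own tail and recruits phosphatases such as SHIP1. Trem1 and Trem2 pair in the same way with DAP12, the product of Tyrobp. Trem1 amplifies inflammatory responses of myeloid cells, and Trem2 binds lipids and lipoproteins and is best known from microglia and lipid-laden macrophages. Fcer1g and Tyrobp both carry an ITAM, a pair of tyrosines that Src-family kinases phosphorylate and to which Syk then binds through its SH2 domains.

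The coding stretches of these motifs are shown because they divide the genes into the roles by which the results are ordered below. A search of the annotated coding sequence of all 9 genes for the ITAM pattern, a tyrosine codon with a leucine or isoleucine codon 3 places on and the same pair again after a gap of 6 to 8 codons, found it in 2 genes, Fcer1g and Tyrobp. The inhibitory pattern, a tyrosine codon with a serine, valine, leucine or isoleucine codon 2 places before it and a leucine, isoleucine or valine codon 3 places after it, was searched in Fcgr2b alone. Sequences are from GENCODE release 21 on GRCm38, and capitals mark the codons that define each motif, tyrosine included. The Fcer1g stretch lies at chr1:171229889-171230072 on the minus strand (codons 65 to 79 of 86) and the Tyrobp stretch at chr7:30415670-30417382 on the plus strand (codons 92 to 106 of 114), each split by an intron. The Fcgr2b stretch lies at chr1:170961071-170961088 on the minus strand (codons 317 to 322 of 340).
Fcer1g ITAM: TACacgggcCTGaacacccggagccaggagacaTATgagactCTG
Tyrobp ITAM: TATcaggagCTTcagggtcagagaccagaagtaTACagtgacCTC
Fcgr2b ITIM: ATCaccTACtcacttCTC

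Fcgr2b and Fcgr3 have opposite signalling roles but nearly the same coding sequence over part of their length. Their coding sequences share a block of 509 bases with 18 differences (96.5% identity), in which the longest identical run is 129 bases. The 120-base window of that block shown here was picked as the one with the most differences and holds 11 of the 18, in capitals. Elsewhere in the block the letters that separate reads of the inhibitory and the activating gene lie further apart. The sources used here do not give how reads that match both genes were treated, which leaves the split of reads between them uncertain.
Fcgr2b: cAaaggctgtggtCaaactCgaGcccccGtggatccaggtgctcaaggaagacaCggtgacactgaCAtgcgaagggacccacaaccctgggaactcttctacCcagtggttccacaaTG
Fcgr3: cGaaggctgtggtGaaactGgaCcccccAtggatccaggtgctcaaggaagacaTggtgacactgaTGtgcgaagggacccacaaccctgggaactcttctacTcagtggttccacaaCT

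Total counts ran from 42548170 to 58947230 per library, so that 1 CPM, the count scaled by library size and TMM factor, stood for 42.6 to 58.5 reads. Mtdh had 11560, 14849 and 11806 counts in the WT libraries and 15, 22 and 15 in the AEG-1 KO libraries, 0.151% of the WT level in CPM, which matches the labels. All 9 genes passed the filter on low counts, each with at least 93 counts in every library.

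Of the 9 genes, Trem2, Fcgr3 and Fcgr2b rose in AEG-1 KO macrophages and Fcer1g fell, by edgeR's quasi-likelihood test at a Benjamini-Hochberg adjusted p under 0.05 over all 16115 tested genes. The other 5, Fcgr1, Fcgr4, Tyrobp, Trem1 and Syk, did not pass. Among all tested genes 6.35% passed, 3.31% as higher and 3.04% as lower. Since 8 of the 9 genes had a mean of at least 50 CPM, where smaller changes can be detected, the better background is the tested genes at that level, of which 10.9% passed, 5.13% as higher and 5.79% as lower. In 6 of the 9 genes the 3 AEG-1 KO libraries did not overlap the 3 WT libraries, against 26.8% of all tested genes and 33.8% of those at 50 CPM or more. These shares are a description, since the 9 genes were picked with earlier results of the data known. They are also the background for the counts of each list below. By direction, groups did not overlap as higher in 2236 and as lower in 2075 of the 16115 tested genes. The median log2 fold change of the 9 genes was -0.02, and that of all tested genes 0.01.

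**Figure D1:**
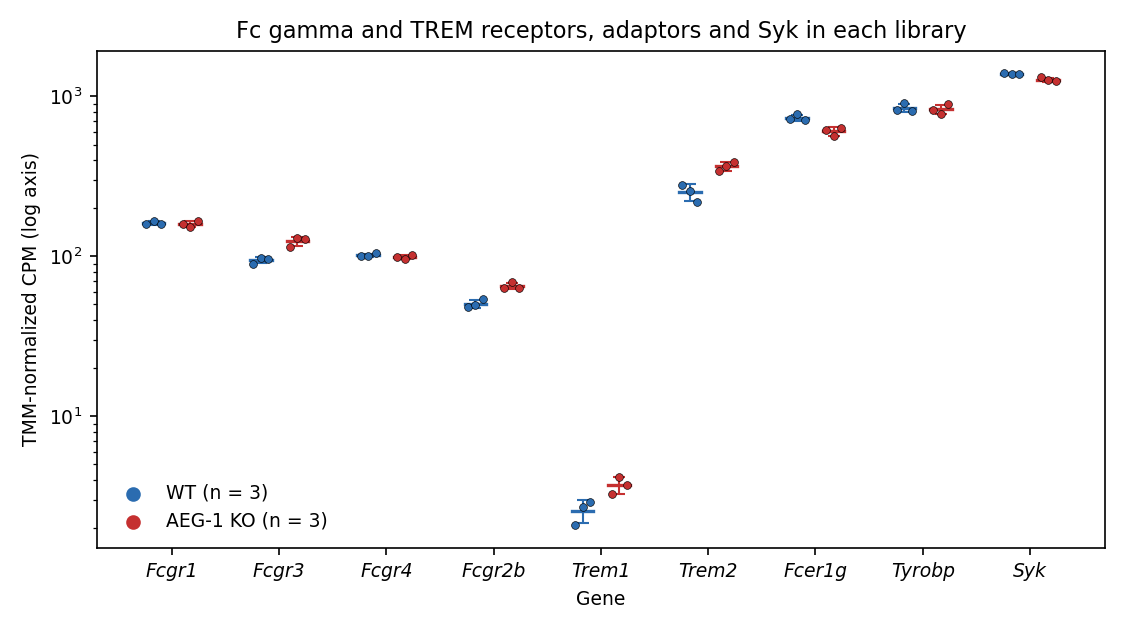
CPM of each of the 9 genes in the 3 WT and 3 AEG-1 KO libraries (points), on a log axis, with the group mean and SD as bars. Trem2, Fcgr3 and Fcgr2b lie higher in every AEG-1 KO library than in any WT library and Fcer1g lower, while the groups of Fcgr1, Fcgr4 and Tyrobp overlap.

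Fcgr3, the low-affinity activating receptor for IgG complexes (ENSMUSG00000059498, chr1:171051174-171064935, minus strand, GRCm38), was at 89.6, 98.0 and 96.8 CPM in WT replicates 1 to 3. In AEG-1 KO replicates 1 to 3 it was at 115, 130 and 128 CPM. Every AEG-1 KO library was above every WT library. The log2 fold change was 0.39 ± 0.06 (SE, n = 3 against 3), a 1.31-fold rise with an edgeR adjusted p of 0.00552. The call held without any 1 library, at adjusted p from 0.00546 to 0.0377.

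Fcgr4, an activating receptor for IgG2 subclasses (ENSMUSG00000059089, chr1:171018920-171029761, plus strand), lies between Fcgr2b and Fcgr3 and did not pass the test. Its levels were 100.1, 99.8 and 104 CPM in WT and 99.6, 96.1 and 102 CPM in AEG-1 KO. The groups overlapped, and the log2 fold change of -0.03 had a 95% interval of -0.13 to 0.07 (edgeR adjusted p = 0.763). The interval for Fcgr3, 0.26 to 0.53, lies wholly above it, although the difference between the genes was not itself tested. Fcgr1, the high-affinity receptor for monomeric IgG (ENSMUSG00000015947, chr3:96282909-96293969, minus strand), was at 159, 167 and 159 CPM in WT and 159, 152 and 166 CPM in AEG-1 KO. Here too the groups overlapped, with a log2 fold change of -0.02 (95% interval -0.13 to 0.08, edgeR adjusted p = 0.824). Of the activating receptors, then, Fcgr3 was the one that passed.

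Fcgr2b, the inhibitory receptor (ENSMUSG00000026656, chr1:170958617-170976547, minus strand), was at 48.2, 49.6 and 53.8 CPM in WT and 63.3, 68.6 and 63.4 CPM in AEG-1 KO. The lowest AEG-1 KO library was above the highest WT library. The log2 fold change was 0.37 ± 0.06 (SE), 1.29-fold, with an edgeR adjusted p of 0.00643. The call rested in part on AEG-1 KO replicate 2, without which the log2 fold change was 0.32 and the adjusted p 0.0507. Fcgr2b overlaps the antisense gene Gm38204 over 155 bases, and since the strand setting of the counting is not given, reads of the pair cannot be told apart. Stretches of its transcripts also match 30 other genes closely (at least 95% identity over 100 bases), Fcgr3 among them. Within each library Fcgr3 stood at a near-constant multiple of Fcgr2b, both in CPM per kilobase of exon. The ratio was 4.353, 4.622 and 4.204 in WT and 4.237, 4.434 and 4.726 in AEG-1 KO. The groups overlapped, so both receptors moved by about the same factor, and their reads are the ones hardest to assign to 1 gene or the other.

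B cells express Fcgr2b and NK cells Fcgr3, so markers of both were read beside them. In bulk RNA, fewer cells of a type and less RNA per cell cannot be told apart. Of all tested genes 6.35% were called, and in 26.8% the groups did not overlap. Of 12 B cell markers 8 were tested, of which Pax5 rose, Ighm fell and 6 did not pass. Their median log2 fold change was 0.55, with groups that did not overlap higher in 5 genes and lower in 1. The summed level of the list, most of it Ighm and Cd79b, was 78.9 to 84.4 CPM in WT and 67.7 to 73.6 CPM in AEG-1 KO, with Igll1 at 0 in all libraries. Of 13 NK and T cell markers only Cd4, a T cell gene, passed the filter on low counts. The sum of the list was 11.3 to 11.7 CPM in WT and 12.3 to 13.8 CPM in AEG-1 KO. Gzma was at 0 throughout, and 11 genes, Ncr1, Klrb1c, Nkg7 and Cd3e among them, were below the filter. In AEG-1 KO most of the tested B cell markers thus had higher values while the sum of the B cell list was lower. The NK and T cell sum was slightly higher, but no NK cell marker passed the filter. The part of these cells in the Fcgr2b and Fcgr3 values was not tested. Of the 12 macrophage markers, all tested, 4 rose and 1 fell, with a median log2 fold change of 0.05 and groups that did not overlap higher in 5 genes and lower in 3. The receptor for CSF1, Csf1r, rose from 1941 ± 64.8 to 2526 ± 39.7 CPM (SD) and Mertk from 125 ± 2.34 to 165 ± 5.49 CPM, whereas Adgre1, which encodes F4/80, fell from 4605 ± 34.0 to 4040 ± 125 CPM (edgeR adjusted p = 0.0238). The summed macrophage markers were the largest of any marker list, 18360 to 18840 CPM in WT and 18860 to 19540 CPM in AEG-1 KO.

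**Figure D2:**
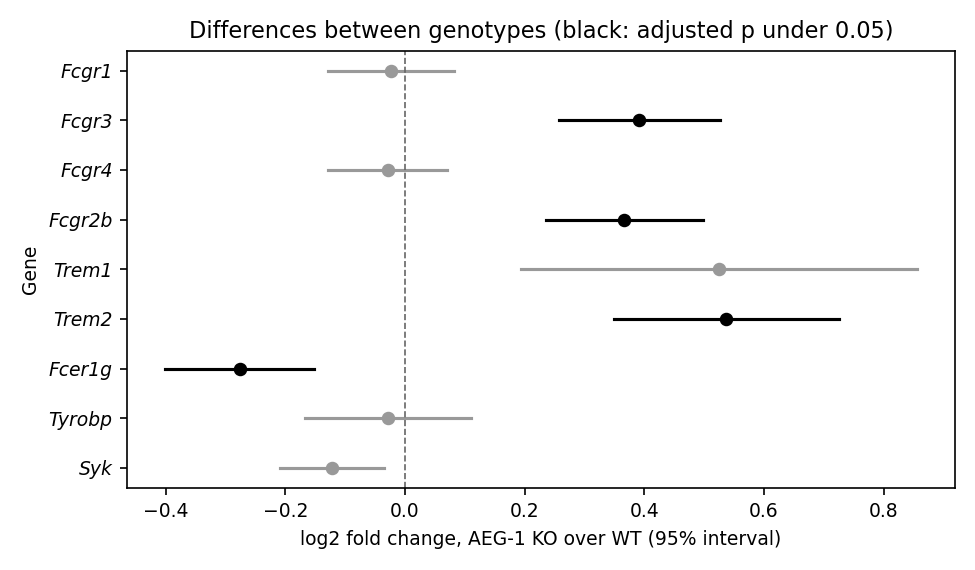
Log2 fold change of AEG-1 KO over WT with its 95% interval for each of the 9 genes, from edgeR. The intervals of Trem2, Fcgr3 and Fcgr2b lie above 0 and that of Fcer1g below 0, those of Fcgr1, Fcgr4 and Tyrobp span 0, and those of Trem1 and Syk exclude 0 although their adjusted p did not pass.

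Trem2, the lipid-sensing receptor (ENSMUSG00000023992, chr17:48346401-48354147, plus strand), had the highest log2 fold change of the 9 genes. It was at 279, 257 and 219 CPM in WT and 341, 367 and 388 CPM in AEG-1 KO. All 3 AEG-1 KO libraries were above all 3 WT libraries, and the spread within WT was wide. The log2 fold change was 0.54 ± 0.08 (SE), 1.45-fold, with an edgeR adjusted p of 0.00597, and the call held without any 1 library (adjusted p from 0.0016 to 0.029). Trem1 (ENSMUSG00000042265, chr17:48232768-48246924, plus strand), the inflammatory relative of Trem2 113.6 kb upstream on the same chromosome, was rare. It was at 2.08, 2.72 and 2.91 CPM in WT and 3.28, 4.16 and 3.70 CPM in AEG-1 KO, or 93 to 159 counts in WT and 148 to 177 in AEG-1 KO. The groups did not overlap, and the log2 fold change was 0.52 ± 0.15 (SE), but the edgeR adjusted p was 0.0691. Its estimate was of the same size as that of Trem2 with a wider error.

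Neutrophils and monocytes are the richest sources of Trem1, and their markers moved as well. Of all tested genes 3.31% were called higher and 3.04% lower. Of 17 neutrophil markers 15 were tested, with 6 higher and 2 lower in AEG-1 KO and a median log2 fold change of 0.59. Their sum was 507 to 512 CPM in WT and 550 to 596 CPM in AEG-1 KO. The granule genes Ngp and Ltf rose from 23.0 to 36.1 CPM and from 27.3 to 42.1 CPM, whereas Mpo and Elane were below the filter. Mmp9, which is also in the osteoclast list below, was 1 of the 2 neutrophil markers called lower. Of 14 monocyte markers, all tested, 6 rose, with a median of 0.30. Among them Ccr2, the chemokine receptor of inflammatory monocytes, rose from 12.8 to 20.4 CPM and Plac8 from 5.49 to 10.1 CPM, and the sum was 220 to 245 CPM in WT and 279 to 297 CPM in AEG-1 KO. The sums of both lists were therefore higher in the same libraries as Trem1, and the part of these cells in the Trem1 and Trem2 values was not tested. Markers of stromal cells also rose from low levels, 6 of the 11 tested of 14, from a sum of 10.43 to 11.98 CPM in WT to 17.04 to 19.79 CPM in AEG-1 KO, among them Col1a2 (1.24 to 2.37 CPM) and Col6a3 (1.09 to 2.20 CPM). Of 10 dendritic cell markers 6 were tested, and the sums, 246 to 328 CPM in WT and 258 to 318 CPM in AEG-1 KO, overlapped.

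The promoter windows of Trem1 and Trem2 are shown because the receptors sit in 1 cluster and had similar fold changes. Each holds the 250 bases before the RefSeq start (GRCm38.p6, plus strand), at chr17:48232489-48232738 for Trem1 and chr17:48346151-48346400 for Trem2. Capitals mark GAGGAA or its reverse complement TTCCTC, 1 form of the sequences that myeloid ETS factors such as PU.1 can bind, searched on both strands. Shorter or other forms were not searched.
Trem1 promoter: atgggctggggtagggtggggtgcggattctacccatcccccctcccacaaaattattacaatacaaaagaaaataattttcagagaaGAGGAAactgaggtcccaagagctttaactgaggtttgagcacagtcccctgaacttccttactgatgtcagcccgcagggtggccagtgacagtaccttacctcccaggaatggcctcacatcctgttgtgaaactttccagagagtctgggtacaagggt
Trem2 promoter: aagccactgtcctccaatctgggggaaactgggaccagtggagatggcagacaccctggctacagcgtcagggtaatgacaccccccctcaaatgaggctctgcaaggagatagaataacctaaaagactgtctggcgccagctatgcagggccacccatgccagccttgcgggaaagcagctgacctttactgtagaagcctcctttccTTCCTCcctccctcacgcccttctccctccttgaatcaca

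Of the 9 genes 8 had a window in the RefSeq table, all but Tyrobp. The 6 letters occurred in a window of 6 of them, Fcgr1, Fcgr3, Fcgr4, Syk, Trem1 and Trem2, and did not occur in those of Fcgr2b and Fcer1g. They occurred in 23.3% of all 32851 windows of this length. That is a share of single windows, whereas the 8 genes had 10 windows and were counted by a match in any, so the figures are not of like kind. A match is a description of the letters and does not separate the genes that passed the test from those that did not, since Fcgr4 and Fcgr1 hold it and Fcgr2b does not.

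Fcer1g, the common gamma chain (ENSMUSG00000058715, chr1:171229572-171234365, minus strand), was the gene of the 9 that fell. It was at 720, 773 and 707 CPM in WT and 612, 564 and 639 CPM in AEG-1 KO. The highest AEG-1 KO library was below the lowest WT library. The log2 fold change was -0.28 ± 0.06 (SE), to 0.826 of the WT level, with an edgeR adjusted p of 0.0197. This was the least stable of the 4 calls. The adjusted p was 0.0883 without WT replicate 2, 0.0579 without AEG-1 KO replicate 1 and 0.0763 without AEG-1 KO replicate 2, at log2 fold changes of -0.24, -0.29 and -0.24.

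Tyrobp, the DAP12 adaptor of the TREM receptors (ENSMUSG00000030579, chr7:30413760-30417585, plus strand), was at 823, 906 and 811 CPM in WT and 817, 780 and 894 CPM in AEG-1 KO. The groups overlapped and the log2 fold change was -0.03 (95% interval -0.17 to 0.11, edgeR adjusted p = 0.845). Syk, the kinase that both adaptors recruit (ENSMUSG00000021457, chr13:52583173-52648792, plus strand), was at 1393, 1379 and 1374 CPM in WT and 1313, 1258 and 1240 CPM in AEG-1 KO. Its groups did not overlap and the AEG-1 KO level was the lower, but the log2 fold change of -0.12 ± 0.04 (SE) had an edgeR adjusted p of 0.102.

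Fcer1g is also abundant in mast cells and basophils, whose markers were nearly absent. Of 11 markers 3 were tested, Mcpt4, Mcpt8 and Tpsb2 had no count in any library, Fcer1a, Ms4a2 and Cpa3 were below the filter, and the sum was 1.25 to 1.34 CPM in WT and 1.56 to 1.73 CPM in AEG-1 KO. Osteoclasts, which form from the same precursors, also use Fcer1g and Tyrobp. Of 10 osteoclast markers 7 were tested, with 2 higher, 2 lower and 3 that did not pass (median log2 fold change 0.04). Acp5 fell from 131 ± 8.80 to 102 ± 3.57 CPM and Mmp9 from 51.0 ± 3.91 to 38.0 ± 1.53 CPM, while Dcstamp and Atp6v0d2 rose. Their sum was 230.0 to 257 CPM in WT and 204 to 221 CPM in AEG-1 KO, so it was lower in the libraries in which Fcer1g was lower. The part of either list in the Fcer1g value was not tested.

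To compare levels between genes, CPM were divided by the length of merged exons of coding transcripts, in kilobases. In WT the order was Tyrobp at 1418 ± 87.1, Fcer1g at 980 ± 47.0, Syk at 229 ± 1.63, Trem2 at 220.1 ± 26.2, Fcgr4 at 80.7 ± 1.899, Fcgr1 at 62.4 ± 1.79, Fcgr3 at 58.2 ± 2.76, Fcgr2b at 13.3 ± 0.775 and Trem1 at 0.858 ± 0.145 CPM per kb (SD, n = 3). The adaptors therefore led, above each of the Fc gamma and TREM receptors described here. Other receptors that use these adaptors were not scaled by length. Neighbours in that order had separate ranges except Syk and Trem2. In AEG-1 KO, Trem2 at 319 ± 20.9 CPM per kb stood above Syk at 211 ± 6.31, and Fcgr3 at 76.3 ± 5.15 had reached the range of Fcgr4 at 79.1 ± 2.44 and stood above Fcgr1 at 61.4 ± 2.70. The place of Trem2 depends on the annotation. Over all annotated exons, which for Trem2 include a retained intron (4946 bases against 1143), Trem2 was at 50.9 CPM per kb in WT and 73.8 in AEG-1 KO, below Fcgr4 at 80.7 in WT.

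Ratios within a library put the receptors against their inhibitory partner and their adaptors, as descriptions with no test. The activating receptors together (Fcgr1, Fcgr3 and Fcgr4, in CPM per kb) over Fcgr2b were 15.5, 15.7 and 14.4 in WT and 12.7, 11.9 and 13.5 in AEG-1 KO. All AEG-1 KO libraries were below all WT libraries, with means of 15.2 ± 0.687 and 12.7 ± 0.761 (SD), a fold of 0.835. The balance was thus lower while Fcgr3 over Fcgr2b was not, since Fcgr1 and Fcgr4 stayed near their WT level as Fcgr2b rose. It rests on the Fcgr2b value, and the split of Fcgr2b reads from those of Fcgr3 and Gm38204 is uncertain. The same activating sum over Fcer1g was 0.206 ± 0.00921 in WT and 0.268 ± 0.0145 in AEG-1 KO, 1.31-fold, with groups that did not overlap. For Trem1 and Trem2 over Tyrobp, the ratio was 0.177, 0.149 and 0.142 in WT and 0.219, 0.246 and 0.228 in AEG-1 KO, 1.48-fold. For these receptors alone, there was thus more receptor mRNA per adaptor mRNA in every AEG-1 KO library than in any WT library. Other receptors that use the adaptors were not in the sums, and the TREM sum was nearly all Trem2. For Fcer1g the adaptor itself was lower, the least stable of the 4 calls. Fcer1g over Tyrobp was 0.698, 0.681 and 0.695 in WT and 0.598, 0.577 and 0.570 in AEG-1 KO, a fold of 0.842 with little spread within a genotype.

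**Figure D3:**
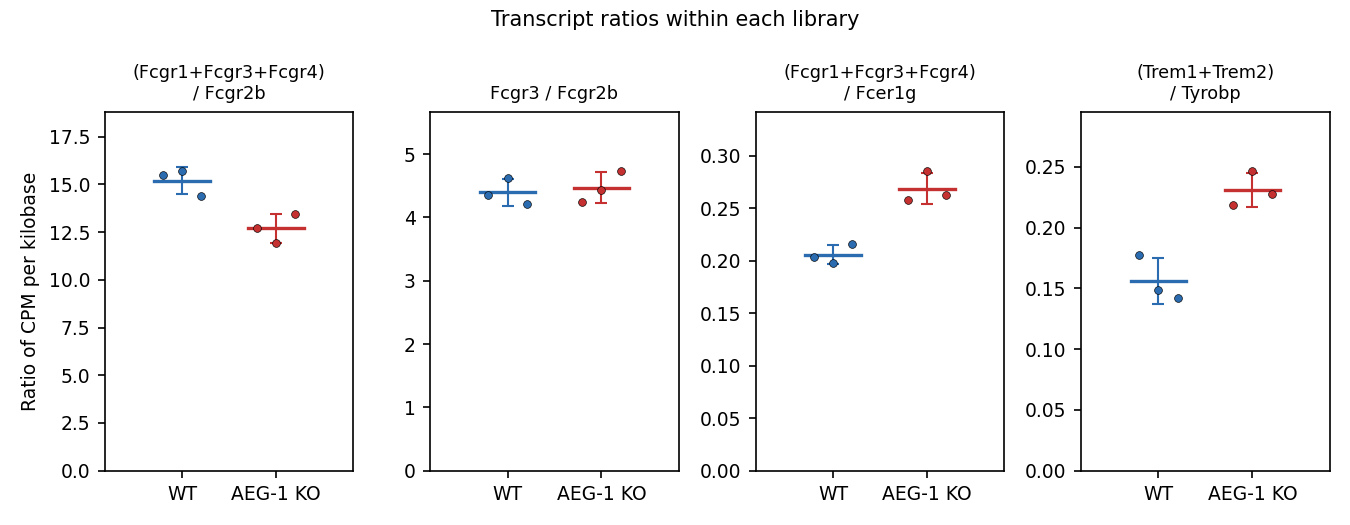
Ratios within each library of CPM per kb: activating receptors over Fcgr2b, Fcgr3 over Fcgr2b, activating receptors over Fcer1g and TREM receptors over Tyrobp, for 3 WT and 3 AEG-1 KO libraries (points), with the group mean and SD as bars and axes from 0. The activating to inhibitory ratio is lower in AEG-1 KO (12.7 against 15.2) and the TREM to Tyrobp ratio higher (0.231 against 0.156), while Fcgr3 over Fcgr2b overlaps.

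Fcgr2b, Fcgr4, Fcgr3 and Fcer1g lie close together on chromosome 1, Fcer1g at the far end, 178.4 kb from Fcgr3 between their lower ends. Within 100 kb of this cluster 19 other genes were tested, and 1 passed, the pseudogene Gm2962, which fell from 4.31 to 2.91 CPM (edgeR adjusted p = 0.0354). Sdhc, which lies between Fcgr3 and Fcer1g, had a log2 fold change of -0.09 (adjusted p = 0.228) and did not pass. Around the Trem genes on chromosome 17, 1 of 9 other tested genes passed, B430306N03Rik, a TREM-like gene 30.3 kb upstream of Trem2, at 119 ± 1.26 CPM in WT and, in AEG-1 KO, 133 ± 3.64 CPM (log2 fold change 0.16, adjusted p = 0.0482). Treml2, Treml4 and Trem3, the genes between it and Trem1, had log2 fold changes of 0.10, -0.06 and 0.12 and did not pass. Beside these counts, 6.35% of all tested genes passed, and 10.9% of those at 50 CPM or more. Genes that did not pass are thus the common case beside any gene. In both clusters the genes that rose stood beside such genes, and on chromosome 1 a gene that fell is near 2 that rose.

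**Figure D4:**
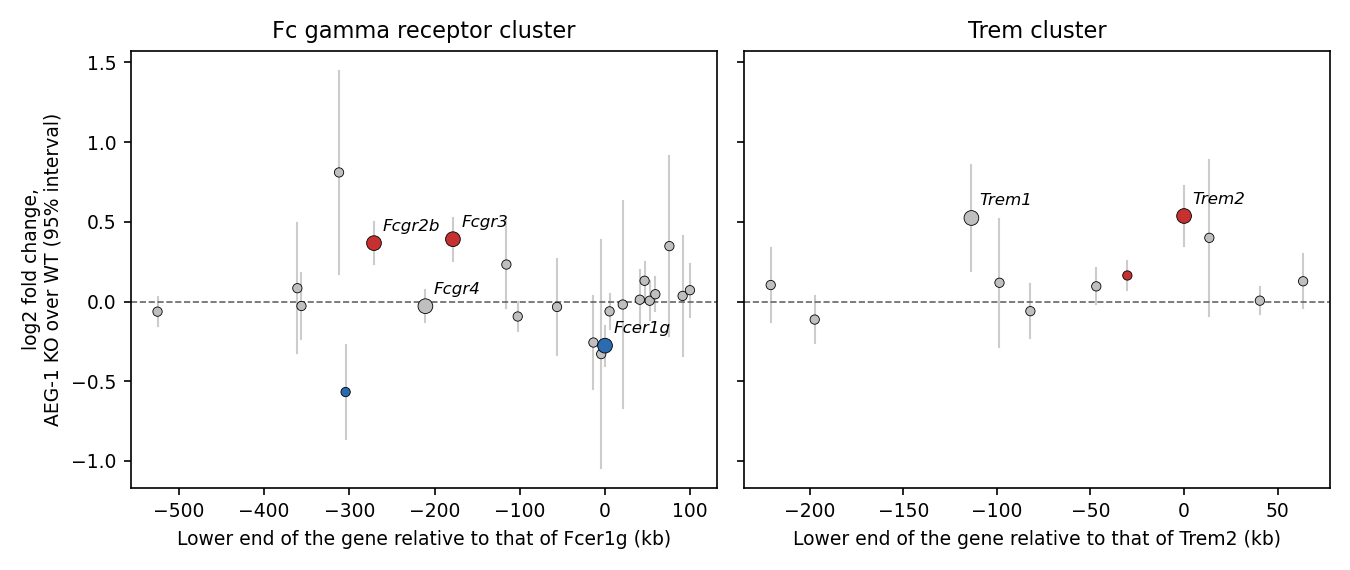
Log2 fold change with its 95% interval of every tested gene in the Fc gamma receptor cluster and the Trem cluster, against its position, as the distance in kb of its lower end from that of Fcer1g or Trem2, with larger points for the 6 genes described here (red called higher, blue called lower, grey not called). Fcgr2b and Fcgr3 lie above 0 on either side of Fcgr4, Fcer1g lies below 0, and Trem2 and B430306N03Rik are the genes of their cluster that passed.

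The other Fc receptor genes went in both directions. The shares called in this and the next lists stand beside 6.35% of all tested genes and 10.9% of those at 50 CPM or more. Of 14 genes 7 were tested, with 1 higher, 2 lower and 4 that did not pass (42.9% called, median log2 fold change -0.05). The Fc receptor-like gene Fcrl5 was at 235, 239 and 241 CPM in WT and 155, 143 and 139 CPM in AEG-1 KO, a log2 fold change of -0.71 ± 0.05 (SE, edgeR adjusted p = 9.3e-05). Fcrls, a relative with a scavenger receptor domain, was at 903, 884 and 894 CPM in WT and 657, 624 and 629 CPM in AEG-1 KO (-0.49 ± 0.04, adjusted p = 0.000189). Both had a lower fold change than Fcer1g, with intervals of -0.82 to -0.60 and -0.58 to -0.40. Fcgrt, the neonatal Fc receptor that recycles IgG, rose from 47.9 ± 5.82 to 62.9 ± 4.50 CPM (SD, log2 fold change 0.39, adjusted p = 0.0322). That call was lost when WT replicate 2 (adjusted p = 0.100), replicate 2 of AEG-1 KO (0.116) or replicate 3 of AEG-1 KO (0.0917) was left out.

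Among 20 other genes listed with the TREM family and DAP12-coupled receptors 16 were tested, with 4 higher, 1 lower and 11 that did not pass (31.2% called, median 0.12). Cd300lb, an activating CD300 receptor, rose from 126 ± 3.96 to 160 ± 2.45 CPM (SD, edgeR adjusted p = 0.00162). Clec5a, a lectin that signals through DAP12, rose from 14.9 ± 1.21 to 21.6 ± 1.37 CPM (adjusted p = 0.00437), and Sirpb1b from 33.3 ± 1.71 to 39.4 ± 0.120 CPM (adjusted p = 0.0286). Sirpb1b has 2 near-identical genes, Sirpb1a and Sirpb1c, with which its reads may be shared. Cd300ld fell from 168 ± 5.89 to 143 ± 6.43 CPM (adjusted p = 0.0227). The fourth riser was B430306N03Rik, described above. The count of 4 was 2 without any 1 of the AEG-1 KO libraries, without WT replicate 1 or without WT replicate 2, and Cd300ld was no longer called when WT 2, AEG-1 KO 2 or AEG-1 KO 3 was left out.

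The list of receptors coupled to the FcR gamma chain and of related ITAM receptors held 18 genes, of which 14 were matched and 11 tested. Of these 2 rose and 9 did not pass (18.2% called, median 0.01), although Fcer1g itself was lower. Csf2rb, the common beta chain of the GM-CSF, IL-3 and IL-5 receptors, was at 396, 405 and 393 CPM in WT and 511, 536 and 539 CPM in AEG-1 KO (log2 fold change 0.41 ± 0.04, SE, edgeR adjusted p = 0.000573). It has 1 near-identical gene, so its reads may be shared. Clec4n, the receptor Dectin-2, rose from 40.0 ± 2.76 to 48.4 ± 0.528 CPM (SD, adjusted p = 0.0246), and 1 of the 2 calls was left without WT replicate 1 or any 1 of the AEG-1 KO libraries. Clec4d and Clec4e, the fungal and mycobacterial glycolipid receptors, had log2 fold changes of 0.09 and -0.07 and did not pass.

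Downstream of the adaptors, 40 of 41 genes for Src-family kinases and Syk signalling were tested, with 10 lower, 1 higher and 29 that did not pass (27.5% called). Their median log2 fold change was -0.04, and groups that did not overlap were lower in 18 genes and higher in 3. Among tested genes of at least 50 CPM, 10.9% passed and 33.8% had groups that did not overlap. Among all 16115 tested genes, groups did not overlap as lower in 2075 and as higher in 2236. Blnk, a scaffold that Syk phosphorylates, fell from 110 ± 3.84 to 83.8 ± 1.31 CPM (SD, edgeR adjusted p = 0.0011), and Sos1, an exchange factor for Ras, from 99.4 ± 2.97 to 77.6 ± 4.57 CPM (adjusted p = 0.00509). Among the others that fell were the Src-family kinases Lyn and Fyn, the GTPase Rac2, its exchange factor Vav1, the PI3-kinase gamma subunits Pik3cg and Pik3r5 and the adaptor Lcp2 (SLP-76). Blnk, Lyn, Rac2 and Lcp2 have 1 or 2 near-identical genes each, so their reads may be shared. Lyn and Lcp2 also overlap genes on the opposite strand, over 248 and 282 bases. Vav3 rose from 54.5 ± 2.23 to 67.8 ± 1.79 CPM (adjusted p = 0.00615), a call lost without AEG-1 KO replicate 2. Btk, Plcg2 and Card9, further links of the same chain, had log2 fold changes of 0.01, -0.09 and -0.02 and did not pass. The count of 10 was 4 without WT replicate 2, 4 without AEG-1 KO replicate 2 and 5 without AEG-1 KO replicate 3.

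Inhibitory receptors and phosphatases, the partners of Fcgr2b, were split. Of 38 genes 36 were matched and 34 tested, with 5 higher, 6 lower and 23 that did not pass (32.4% called, median 0.00). Inpp5d, which encodes SHIP1, was at 531 ± 10.0 CPM in WT and, in AEG-1 KO, 532 ± 3.72 CPM (log2 fold change 0.00, 95% interval -0.08 to 0.09), whereas Ptpn6, which encodes the phosphatase SHP-1, fell from 544 ± 23.6 to 458 ± 12.8 CPM (SD, edgeR adjusted p = 0.0122). Ptpn6 overlaps a gene on the opposite strand and has 1 near-identical gene, so its value is uncertain. Siglece, an inhibitory sialic acid receptor, fell from 335 ± 8.26 to 243 ± 15.9 CPM (adjusted p = 0.00114) and Sla, an adaptor that dampens antigen receptor signalling, from 229 ± 8.84 to 167 ± 5.37 CPM (adjusted p = 0.0007). In the other direction, Cd300a rose from 197 ± 3.98 to 250.4 ± 2.57 CPM (adjusted p = 0.00103) and Cd300lf from 17.5 ± 1.31 to 27.2 ± 0.91 CPM (adjusted p = 0.000899). Cd300lf is near-identical over part of its length to Cd300ld, which fell, and Cd300a has 3 such genes, so the split of their reads is uncertain too. The count of 5 was 3 without AEG-1 KO replicate 1 and 2 with AEG-1 KO 2, AEG-1 KO 3 or WT 2 left out, and the count of 6 was 3 without AEG-1 KO replicate 2 or WT replicate 2.

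Trem2 itself was read beside its ligands, its sheddases and the genes that are known to depend on it in microglia and lipid-associated macrophages. Of 14 ligand and sheddase genes 11 were tested. Hspd1 fell (log2 fold change -0.23, edgeR adjusted p = 0.0463), a call lost with upper-quartile scaling (adjusted p = 0.0554), with no scaling factors (0.0587) and without WT replicate 2, WT replicate 3 or any 1 of the AEG-1 KO libraries. Hspd1 has 4 near-identical genes, so its reads may be shared. The other 10 did not pass (9.09% called, median 0.05). Apoe, the lipoprotein ligand, was at 3248, 2784 and 2123 CPM in WT and 3079, 3463 and 4017 CPM in AEG-1 KO. Its groups overlapped (log2 fold change 0.37, adjusted p = 0.167). The sheddases Adam10 and Adam17, which cut Trem2 from the surface, had log2 fold changes of 0.14 (adjusted p = 0.112) and 0.05 (adjusted p = 0.666).

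All 27 matched genes of the 28 listed as dependent on TREM2 were tested, with 8 higher, 2 lower and 17 that did not pass (37.0% called). The median log2 fold change was 0.17, against 0.01 over all tested genes, and 24 of the 27 had a value above 0. Of tested genes at 50 CPM or more, 10.9% were called. The list was chosen with earlier results of these data known, so its counts are a description. Axl, a receptor for apoptotic cells, was at 161, 159 and 146 CPM in WT and 232, 251 and 249 CPM in AEG-1 KO (log2 fold change 0.65 ± 0.05, SE, edgeR adjusted p = 0.000196). Nceh1, a cholesterol ester hydrolase, rose from 264 ± 4.90 to 339 ± 8.04 CPM (SD, adjusted p = 0.000996), the chemokine Ccl6 from 147 ± 6.43 to 192 ± 4.69 CPM (adjusted p = 0.00162) and osteopontin, Spp1, from 581 ± 11.2 to 699.6 ± 19.0 CPM (adjusted p = 0.00453). Plin2, which coats lipid droplets, the pyrophosphate transporter Ank and the lysosomal proteases Ctsd and Ctsb also rose, while Cd52 and Cd63 fell. Cd63 has 31 near-identical genes, and Spp1, Plin2, Ctsb, Ctsd and Cd52 have 1 each, so their reads may be shared. Other leading genes of that programme, Lpl at a log2 fold change of 0.01 and Cd9 at 0.09, did not pass. Gpnmb at 0.21 did not pass either (adjusted p = 0.0572). The count of 8 was 5 without AEG-1 KO replicate 1 and 4 without AEG-1 KO replicate 2, and 1 of the 2 that fell was called without WT replicate 2 or any 1 of the AEG-1 KO libraries.

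**Figure D5:**
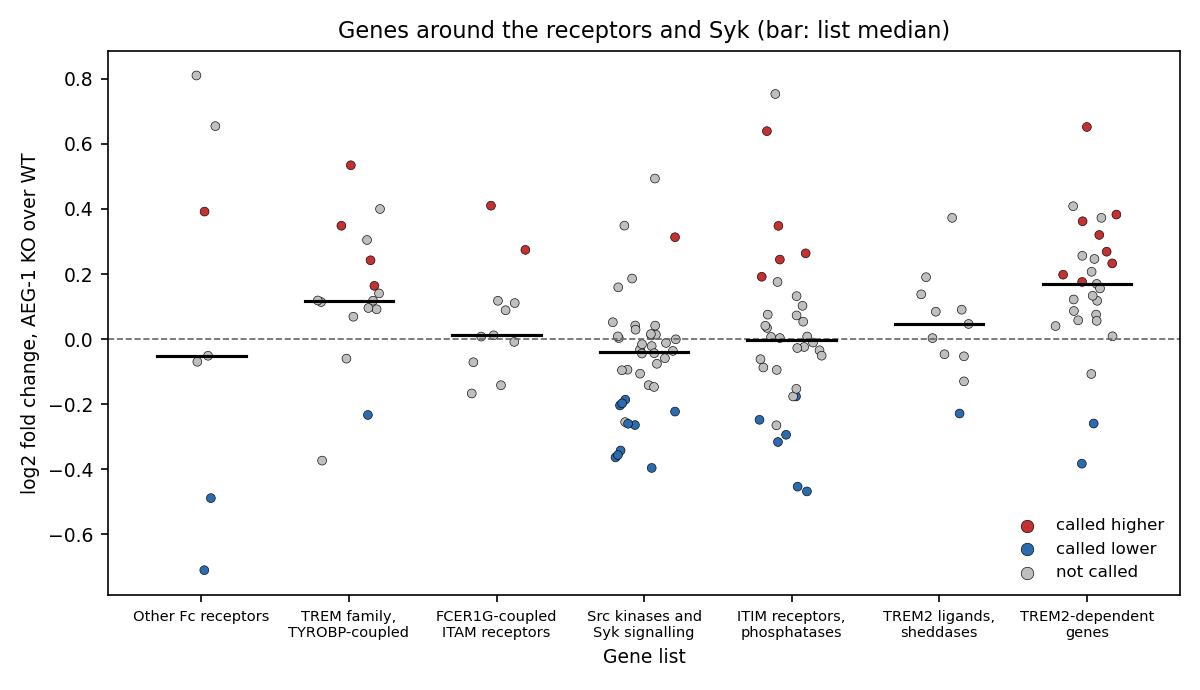
Log2 fold change of every tested gene (points, red called higher, blue called lower, grey not called) in each pathway list, with the list median as a bar, in AEG-1 KO over WT. The Syk signalling list has 10 genes called lower and 1 higher (median -0.04), and the TREM2-dependent list 8 higher and 2 lower (median 0.17).

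The genes whose log2 CPM ran most like those of the 4 called genes over the 6 libraries were found among 13291 genes of at least 1 CPM, as a description by Pearson's r, since all points share the same 6 libraries. For Fcgr2b they were Vsig10, Tut4 and the RNA sensor Tlr7, with r from 0.9979 to 0.9985. For Fcgr3 they were Rasa3, Ptgs1, which encodes the cyclooxygenase COX-1, and Scpep1, with r from 0.994 to 0.997. Dynll1, 1810037I17Rik and Kcnd1 were nearest to Fcer1g, at r of 0.996, 0.995 and 0.995. Cyp4f18, Ppp1r3b and Zmynd15 were nearest to Trem2, at r of 0.998, 0.997 and 0.995. No gene appeared in more than 1 of these lists, and Fcgr2b and Fcgr3 had no nearest gene in common.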

How the data were processed

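Per the labels' protocols, TruSeq RNA libraries of total BMDM RNA were sequenced on a HiSeq3000. Per the file headers, the values deposited by the authors are raw counts for each Ensembl gene, not normalized. The submitters' processing notes name FastQC 0.11.2, cutadapt 1.9, Subread, featureCounts 1.4.6-p4, edgeR 3.18.1, and mm10 or GRCm38 as build. Not given in the sources used here were the strand setting, the annotation release and the handling of multiply matching reads.

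Of 46983 identifiers 46488 matched GENCODE release 21. The whole table was filtered (filterByExpr, minimum count 10), scaled by TMM and fitted with edgeR 4.0.16 (glmQLFit, legacy false, R 4.3.3) on genotype alone. Benjamini-Hochberg adjustment ran over 16115 genes, with calls at an adjusted p under 0.05. The fit was tested on simulated data. Alternatives were other scalings, filters, DESeq2 1.42.0, limma-voom 3.58.1, the exact test, robust and legacy fits, a replicate block and leaving out each library. Replicates differed by more than sampling noise (chi-square per degree of freedom 5.57 to 19.2). Near-identical genes were found with BLAST+ 2.17.0. Among the named marker genes that were called, Acp5, Csf1r and Pax5 also have such genes. All 37 mitochondrial genes had 0 counts, so they gave no measure of RNA quality.

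The 9 genes and the gene lists were chosen with earlier results of these data known. Genes named were the 9, Mtdh, of each pathway list the called genes of at least 1 CPM with the smallest p (at most 4, or 2 where none was called), of each marker list at most 2, and the 3 genes most like each called gene. Any further gene was picked with its values in view. Some genes that this rule would name are not reported here.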

Additional observations from a re-analysis of the deposited data

How the results depend on the processing

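Replicate numbers are shared by the genotypes. The deviations from the group means of same-numbered libraries had negative correlations (r = -0.274, -0.173 and -0.251), and those of other-numbered libraries ran from 0.057 to 0.194. With 3 libraries per genotype these values cannot settle whether the numbers pair libraries. With the replicate number as a block, 113 genes were higher and 114 lower, against 533 and 490, and of the 9 genes 1 was higher (Fcgr3) and 0 lower. Fcgr2b then had a log2 fold change of 0.3674 (adjusted p = 0.0672), Trem2 0.5417 (0.0597) and Fcer1g -0.2772 (0.152), and the Syk signalling list had 2 genes lower. At an adjusted p under 0.01, 195 genes were higher and 198 lower, and of the 9 genes 3 and 0. The exact test called 737 genes lower and 793 higher, Trem1 among them (0.5274, adjusted p = 0.0184). With no filter on low counts 2 of the 9 were lower, Syk being added (-0.1351, adjusted p = 0.0466).

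Leaving out 1 library gave 184 to 519 genes higher, fewest without AEG-1 KO replicate 2, and 196 to 575 lower, and of the 9 genes 2 to 3 higher and 0 to 1 lower. Log2 fold changes ran from 0.3206 to 0.4096 for Fcgr2b and from -0.3247 to -0.2354 for Fcer1g. No call of the 9 genes reversed under any alternative run. Under the 10 alternatives of scaling, filter, tool and dispersion the calls of Fcgr2b, Fcgr3, Fcer1g and Trem2 held, with the highest adjusted p at 0.021, for Fcer1g. The activating to inhibitory ratio stayed lower over all exons (0.832), in CPM (0.830) and without Fcgr1 (0.868). The causes of the lost calls were not tested. Trem1 had the lowest depth of the 9 genes, 93 to 177 counts per library.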

Other observations

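Trem2 and Apoe, which encodes a lipoprotein that Trem2 binds, had the same order of libraries within each genotype, a pattern chosen after the values were seen. Trem2 was at 279, 257 and 219 CPM in WT replicates 1, 2 and 3, where Apoe was at 3248, 2784 and 2123 CPM. In AEG-1 KO replicates 1, 2 and 3 Trem2 was at 341, 367 and 388 CPM and Apoe at 3079, 3463 and 4017 CPM. With 3 libraries per genotype this was not tested.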
